A study of Homo sapiens with 4 samples.

Results

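Genes that encode the transcription machinery itself were followed in maps of histone H3 acetylated at lysine 27 (H3K27ac): subunits of the RNA polymerases (POLR1, POLR2 and POLR3 symbols), general transcription factors (GTF2 and GTF3 symbols), TBP-associated factors (TAF symbols) and Mediator subunits (MED symbols). Members were taken by symbol alone, as called regions credited to a symbol of this form. The rule took 94 of 19110 regions in control cells, credited to 60 genes, and 6 of 604 regions in testosterone-treated cells, credited to 5 genes. RefSeq lists 111 protein-coding genes with symbols of this form, and these 111 were the denominator. The symbol rule also takes the TFII-I family (GTF2I and its relatives) and TAF15, an RNA-binding protein of the FET family, which are not general factors in the strict sense.

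The cells were KGN, an established line from a human granulosa cell tumor, and H3K27ac was mapped by chromatin immunoprecipitation and sequencing. Control cells gave 1 immunoprecipitated (IP) library and 1 input library. Treated cells received testosterone for 24 h at a dose the labels write as 10 um, and gave the same pair of libraries. Both groups were KGN cells in the same serum-containing medium, and the labels name no vehicle, genetic change or replicate culture. The authors called regions from the single IP of a condition and its matched input. With no replicate IP, differences between conditions carry no error and no p-value is given. Enrichment values are the authors' and describe their own list: fold is the fragment pileup at the summit over the local background, and its size cannot be compared between the lists. The depth of the testosterone IP, estimated from the deposited values, was 1.03 times that of the control IP. The estimate takes the lowest local background of a list as its genome-wide level and the shortest region as the fragment length. It also takes the step of the control pileup as a scaling of that library, and these assumptions were not tested. In the control list FOXL2, the transcription factor that marks granulosa cells, had a promoter region with a fold of 10.7. The other granulosa markers examined had none at a promoter: NR5A1 had 2 control regions, neither at its promoter, and INHA, CYP19A1, FSHR and AMH had no region in either list.

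H3K27ac is laid down by the acetyltransferases p300 and CBP at active promoters and enhancers, and is removed by histone deacetylases. The nuclear polymerases divide transcription: Pol I makes the large ribosomal RNA precursor, Pol II messenger RNA, and Pol III transfer RNA and other short RNA. Each needs its own general factors to find a promoter (SL1 for Pol I, TFIIA to TFIIH with TFIID for Pol II, TFIIIC for Pol III), and Mediator carries signals from DNA-bound activators, nuclear hormone receptors among them, to Pol II. All of these subunits are themselves encoded by Pol II genes, mostly with housekeeping promoters rich in CpG.

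A few promoter windows that the results turn on were read from RefSeq on GRCh38.p14, each 300 bases from 250 before to 50 after a listed start, written 5′ to 3′ in the direction of the gene. Capitals mark matches to any of 9 short motifs, searched on both strands. The NFY motif was CCAAT, the motif of SP and KLF factors GGGCGG and the ETS factor motif CCGGAAG. For NRF1 the letters GCGCATGCG were searched, for YY1 the letters AAGATGG and for ZNF143 the letters ACTACAATT. The E-box was CACGTG, the cyclic AMP response element TGACGTNA and the core promoter box upstream of many regulated genes TATAAA. No overlap between motifs was removed. POLR3C, a Pol III subunit, and MED15, a subunit of the Mediator tail, are shown because theirs were the only member promoters credited with a region in both lists. Of the 2 windows of POLR3C, the second lies inside its testosterone region. TAF6L, GTF3C6 and MED19 are shown because they had among the highest control folds of the members. TAF1B, a subunit of SL1, is shown for its pair of ETS matches. POLR1A, the largest subunit of Pol I, is shown as a gene with no region in either list.
POLR3C, chr1:145823950-145824249, plus strand: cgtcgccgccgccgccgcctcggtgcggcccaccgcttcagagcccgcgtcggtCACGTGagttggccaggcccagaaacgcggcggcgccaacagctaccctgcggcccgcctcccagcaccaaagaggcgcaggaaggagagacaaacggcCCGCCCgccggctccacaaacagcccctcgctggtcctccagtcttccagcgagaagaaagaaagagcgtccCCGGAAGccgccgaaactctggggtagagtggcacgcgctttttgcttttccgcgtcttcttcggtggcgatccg
POLR3C second start, chr1:145824195-145824494, plus strand: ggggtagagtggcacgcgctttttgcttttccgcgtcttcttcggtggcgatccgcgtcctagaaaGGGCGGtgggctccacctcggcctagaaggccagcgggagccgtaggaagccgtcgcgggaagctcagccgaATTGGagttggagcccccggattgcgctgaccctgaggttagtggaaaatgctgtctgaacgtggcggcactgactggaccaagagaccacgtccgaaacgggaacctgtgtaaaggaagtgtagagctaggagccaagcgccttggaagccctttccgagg
MED15, chr22:20507360-20507659, plus strand: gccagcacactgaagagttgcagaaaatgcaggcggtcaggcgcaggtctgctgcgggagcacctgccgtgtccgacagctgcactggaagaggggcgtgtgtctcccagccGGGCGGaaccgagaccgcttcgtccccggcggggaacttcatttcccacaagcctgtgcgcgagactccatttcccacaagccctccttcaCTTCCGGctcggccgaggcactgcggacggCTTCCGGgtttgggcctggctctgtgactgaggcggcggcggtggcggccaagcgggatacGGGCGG
TAF6L, chr11:62771146-62771445, plus strand: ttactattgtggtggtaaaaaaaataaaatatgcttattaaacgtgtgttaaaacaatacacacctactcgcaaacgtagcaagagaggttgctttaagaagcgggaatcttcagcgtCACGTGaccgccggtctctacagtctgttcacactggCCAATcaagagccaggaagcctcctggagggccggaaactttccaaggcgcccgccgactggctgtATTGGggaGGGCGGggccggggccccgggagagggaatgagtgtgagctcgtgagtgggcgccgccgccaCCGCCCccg
GTF3C6, chr6:110958456-110958755, plus strand: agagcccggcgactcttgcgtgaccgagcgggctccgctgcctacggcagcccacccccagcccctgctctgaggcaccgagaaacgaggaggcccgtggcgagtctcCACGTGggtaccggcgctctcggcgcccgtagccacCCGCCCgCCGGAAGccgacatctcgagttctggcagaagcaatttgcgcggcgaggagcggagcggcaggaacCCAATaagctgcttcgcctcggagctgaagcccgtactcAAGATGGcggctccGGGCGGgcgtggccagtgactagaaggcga
MED19, chr11:57712166-57712465, minus strand: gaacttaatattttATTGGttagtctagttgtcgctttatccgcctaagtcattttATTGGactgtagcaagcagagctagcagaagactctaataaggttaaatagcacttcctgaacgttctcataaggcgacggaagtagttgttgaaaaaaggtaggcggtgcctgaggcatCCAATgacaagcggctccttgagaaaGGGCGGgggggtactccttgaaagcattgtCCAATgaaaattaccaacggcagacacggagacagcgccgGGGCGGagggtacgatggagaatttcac
TAF1B, chr2:9843192-9843491, plus strand: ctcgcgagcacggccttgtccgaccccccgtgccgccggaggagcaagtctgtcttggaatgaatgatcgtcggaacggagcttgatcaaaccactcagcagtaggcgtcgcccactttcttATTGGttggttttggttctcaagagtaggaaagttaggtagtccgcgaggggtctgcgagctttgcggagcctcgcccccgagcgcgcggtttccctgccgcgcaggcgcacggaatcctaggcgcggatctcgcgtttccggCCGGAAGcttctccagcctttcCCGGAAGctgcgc
POLR1A, chr2:86105837-86106136, minus strand: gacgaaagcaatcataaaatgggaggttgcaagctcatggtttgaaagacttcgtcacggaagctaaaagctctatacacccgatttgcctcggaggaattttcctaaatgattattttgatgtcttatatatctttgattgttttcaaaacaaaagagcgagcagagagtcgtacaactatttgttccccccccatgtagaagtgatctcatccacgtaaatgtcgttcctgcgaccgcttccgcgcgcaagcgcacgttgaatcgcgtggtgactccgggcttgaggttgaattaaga

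In control cells 55 of the 111 genes (49.5%) had a promoter region, within 1 kb of a start by the authors' annotation, where 41% of 19970 protein-coding genes had one. After testosterone 2 of the 111 (1.8%) had one, POLR3C and MED15, where 0.931% of all protein-coding genes did. Counted by position instead, for the genes with a start in the RefSeq promoter table, 45 of 85 members (52.9%) had a control region within 1 kb of a start, beside 46.4% of 15812 genes. In the testosterone list this count was 3 of 85 (3.53%), POLR3C, MED15 and TAF6, beside 0.987%. Both control shares of the members lay somewhat above those of protein-coding genes at large. In the testosterone list nearly all members were without a called promoter region, as were nearly all other genes.

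**Figure D1:**
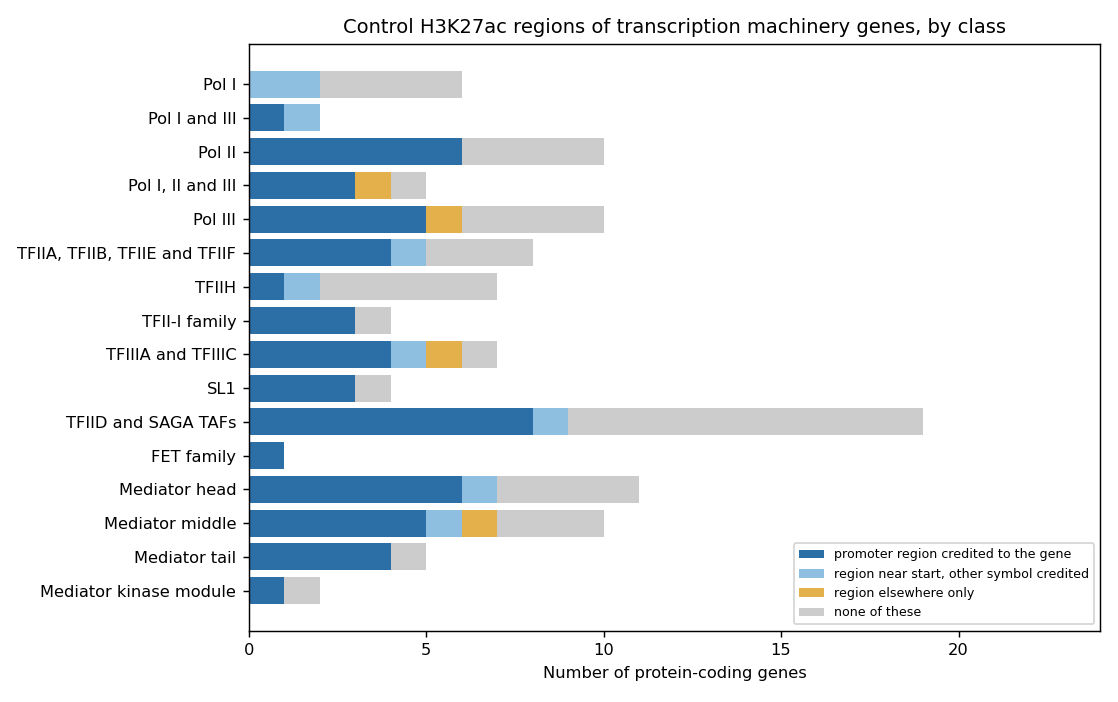
Number of protein-coding genes in each class (x axis) by where a control H3K27ac region lay: dark blue, a promoter region credited to the gene; light blue, a region within 1 kb of its start credited to another symbol; ochre, a region elsewhere only; grey, none of these. TAFs of TFIID and SAGA formed the largest class, with 8 of 19 genes in dark blue, and Pol I had 0 of 6.

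Of the 56 genes without a credited control promoter region, 9 still had a control region within 1 kb of their start that the authors credited to another symbol, 4 had a region elsewhere only, and 43 had neither. For 2 of the 9 the other symbol was an older name of the same gene: POLR1H appeared as ZNRD1, and POLR1G as CD3EAP. For the other 7 a neighboring gene was credited. The strongest of these by fragments at the summit was TAF9, a histone-fold subunit of TFIID, whose start lay under a region of 39 fragments and a fold of 3.75 credited to AK6. GTF2H5, the smallest TFIIH subunit, lay under a 1293-bp region credited to SERAC1 with a fold of 4.23. A member counted as unmarked can therefore still have a region at its start.

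Polymerase subunits had a control promoter region in 15 of 33 cases. For this count and the class counts that follow, the share of all protein-coding genes was 41%. None of the 6 genes specific to Pol I had a region under its current symbol, although POLR1G and POLR1H had promoter regions under older ones. POLR1A, POLR1B and POLR1F had none near a listed start, and POLR1E has no listed start here. POLR1C and POLR1D are shared by Pol I and Pol III, where they form an assembly platform. The POLR1C region (fold 5.36) lay on the neighboring gene LRRC73, 6.475 kb from the outer RefSeq start of POLR1C, and the region near POLR1D was credited to LNX2. These credits are therefore uncertain.

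For Pol II, 6 of 10 genes were marked in control cells, with a median fold of 4.57. POLR2J, which forms a heterodimer of the enzyme's core, was highest at 7.66 with 16 fragments, and POLR2G, of its stalk, lowest at 3.57 with 18 fragments. POLR2A, the catalytic subunit that carries the C-terminal repeat domain, was at 5.33 with 16 fragments. A stronger control region, with a fold of 7.20 and 22 fragments, lay 454 bp before the POLR2A start and was credited to ZBTB4. POLR2B, the other large catalytic subunit, and POLR2C had no region, and neither had POLR2J2 and POLR2J3. These last genes are near copies of POLR2J, so the mapping of fragments among the copies is uncertain. By the regions credited to them, 4 of the 6 marked Pol II genes lay below the median fold of all marked protein-coding genes, which was 5.86. For POLR2A this leaves out the region credited to ZBTB4.

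Of the 5 genes for subunits common to all 3 polymerases, 3 were marked. POLR2F had a fold of 7.45, POLR2H 7.29 and POLR2L 6.58, all above the all-gene median. POLR2H had the widest promoter acetylation of any member, 1592 bp in 3 regions, and POLR2L had 1469 bp in 1 region. POLR2K had no region, and POLR2E had a region 2.443 kb upstream of its start (fold 4.61) but none at the promoter.

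Pol III subunits were marked in 5 of 10 genes, with a median fold of 5.32. POLR3G stood apart at 10.9, with 24 fragments and 1186 bp of promoter acetylation. Both of its promoter regions also lay on the neighboring gene MBLAC2, so their credit to POLR3G is uncertain. POLR3G is the form of its subunit that is abundant in stem cells and many tumors. Its paralog POLR3GL is the form of most differentiated cells, and POLR3GL had no region. A wide control region credited to ANKRD34A lay 1932 bp from the POLR3GL start. The lowest marked gene was POLR3E, at 3.76. Both catalytic subunits, POLR3A and POLR3B, had no region, nor had POLR3F.

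Among general factors of Pol II other than TFIID, 5 of 15 genes were marked in control cells. In the group of TFIIA, TFIIB, TFIIE and TFIIF, 4 of 8 were marked, and GTF2A2 far exceeded the rest. It encodes the small subunit of TFIIA, which stabilizes TBP on DNA, and had a fold of 12.1 with 26 fragments. GTF2F1 (5.75), GTF2B (4.93) and GTF2E2 (4.69) followed, all below the all-gene median. GTF2A1, GTF2A1L and GTF2F2 had no promoter region, and the GTF2E1 start lay beside a region credited to RABL3. GTF2A1, which encodes the large subunits of TFIIA, had only an intronic region credited to TSHR within its gene body, 39063 bp from its start.

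TFIIH opens DNA at the promoter, and 1 of its 7 GTF2H genes was marked, beside 41% of all protein-coding genes. GTF2H1 had a fold of 7.67 with 28 fragments. GTF2H2, GTF2H2C, GTF2H2C_2, GTF2H3 and GTF2H4 had no credited region. The GTF2H5 start lay under a region of fold 4.23 credited to SERAC1. GTF2H2 and its copies are near-identical, so fragments from them may not be assignable. GTF2H4 held a region of fold 6.53 in its body that was credited to its neighbor VARS2, 5432 bp from the GTF2H4 start.

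The TFII-I family had the highest median fold of any class, 10.8, with 3 of 4 genes marked. GTF2I, a signal-responsive factor, had a fold of 11.6 with 40 fragments over 1374 bp. GTF2IRD2B had 10.8 and the most fragments of any member, 45, within only 250 bp, and GTF2IRD1 had 9.23 with 33 fragments. GTF2IRD2 had no region. All 4 genes sit in and beside the Williams syndrome interval of chromosome 7, which is flanked by duplicated segments, and near-identical copies there make the assignment of fragments between GTF2IRD2 and GTF2IRD2B, and at parts of GTF2I, uncertain.

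TAFs of TFIID and the related coactivator SAGA were marked in 8 of 19 genes, with a median fold of 6.14. TAF6L, a histone-fold subunit of SAGA, had the highest fold of all members, 13.3 with 33 fragments, and ranked 106 among 8188 marked protein-coding genes. The other 7 ran from 3.996 for TAF13 to 6.57 for TAF10. TAF1, the largest subunit and scaffold of TFIID, had no region, nor did TAF2, TAF3, TAF11, TAF12, TAF4B and TAF9B. TAF5L, the SAGA counterpart of TAF5, also had none, and neither had TAF1L and TAF7L, which are known from the male germ line. The TAF6 region (fold 6.21) lay 7.784 kb into the gene, at an inner start. The outer TAF6 start lay under another control region, with a fold of 9.33 and 29 fragments, that was credited to MBLAC1. TAF15 had a fold of 5.71.

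SL1 brings Pol I to the ribosomal RNA genes, and 3 of its 4 TAF genes were marked. TAF1B had a fold of 7.52, TAF1D 6.79 and TAF1C 3.996, and TAF1A had no region. The fragments at their summits were 20, 23 and 16.

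For the factors of Pol III, TFIIIA and TFIIIC, 4 of 7 genes were marked, with a median fold of 6.64. GTF3C6, the smallest TFIIIC subunit, had 11.8 with 35 fragments. GTF3C2 had 6.70, GTF3C1 6.57 and GTF3C5 3.76. GTF3C3 had no region, and the region at the GTF3C4 start was credited to DDX31. GTF3A, the zinc-finger protein that binds the 5S ribosomal RNA gene, had no promoter region.

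Mediator genes were marked in 16 of 28 cases, beside 41% of all protein-coding genes. The head, which contacts Pol II, had 6 of 11 marked with a median fold of 6.74. MED8 had 12.7 with 44 fragments and MED22 had 10.9 with 30, while MED18 was lowest at 4.98 with 13. MED6, MED11, MED27 and MED28 had no region, and the MED20 start lay near a region credited to BYSL. The middle had 5 of 10 marked with a median of 5.90. MED19 led it with 11.9 and 41 fragments within 280 bp, and MED14, the scaffold that joins the modules, was lowest at 4.69. MED1, the subunit through which nuclear receptors bind Mediator, had no region, nor had MED4 and MED9. The region near the MED31 start was credited to C17orf100.

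The Mediator tail, which activators bind, was marked in 4 of 5 genes but weakly, with a median fold of 3.71. MED16 had 5.62, MED15 4.23, MED24 3.20 and MED25 3.06, and all of them were below the all-gene median. MED24 and MED25 were the weakest of the 55 marked members. Their regions lay far inside the genes, 27.024 kb and 16.452 kb from the outer RefSeq start, at inner starts of the authors' annotation. MED23 had no region. At their outer starts, then, 2 of the 5 tail genes carried a region, MED15 and MED16. Of the kinase module's 2 MED genes, MED13 had a fold of 5.87 and MED12 no region.

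**Figure D2:**
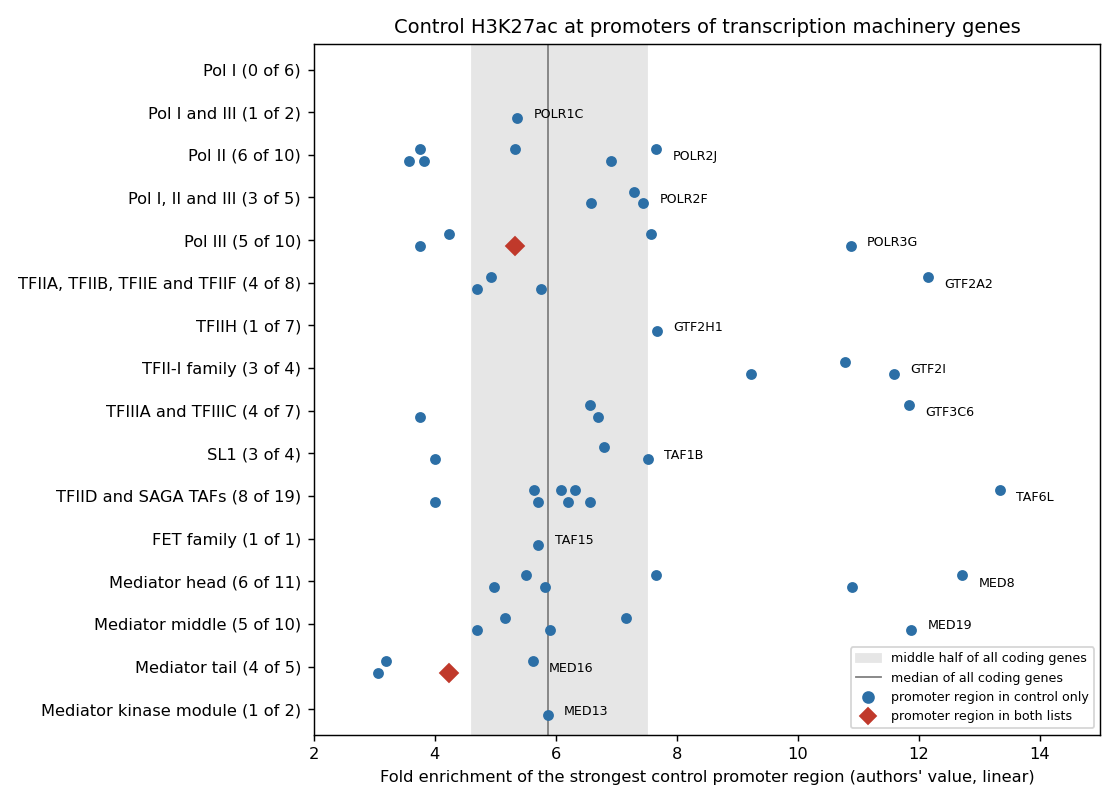
Fold enrichment of the strongest control promoter region (x axis, the authors' value) for each of the 55 marked genes, by class, with the number marked of the number of genes in brackets. The grey line is the median of all marked protein-coding genes, 5.86, and the band spans their quartiles, 4.62 to 7.51. Red diamonds are POLR3C (5.32) and MED15 (4.23), marked in both lists, and the gene named in each row is the highest of its class.

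Across the 55 marked members the median fold was 5.90, beside 5.86 for all 8188 marked protein-coding genes, and 29 of the 55 lay above the all-gene median. In the top 10% of all marked genes by fold were 9 members, drawn from 7 classes: TAF6L, MED8, GTF2A2, MED19, GTF3C6, GTF2I, MED22, POLR3G and GTF2IRD2B. The strongest 5 ranked 106, 151, 202, 218 and 222. Fragments at the summit had a median of 22, beside 20 for all genes, and ran from 10 to 45.

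The strongest promoter region of a member was about as wide as that of other genes, with a median of 507 bp beside 518.5 bp. The summed width of all promoter regions of a gene had a median of 534 bp in members, beside 644 bp for all marked genes. Of the members 7 of 55 (12.7%) had 2 or more promoter regions, beside 25.3% of all marked genes. After POLR2H and POLR2L the widest were GTF2I and POLR1C, both 1374 bp, POLR3G with 1186 bp and TAF6L with 1063 bp. The summit lay within 300 bp of the start in 41 of 55 members (74.5%), beside 64% of all marked genes, and the median distance was 189 bp beside 214 bp.

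Of the 55 marked members, 51 had a promoter region within 1 kb of the outer RefSeq start of the gene. The other 4 were MED24, MED25, POLR1C and TAF6, whose credited regions rest on other starts in the authors' annotation, and of these the outer start of TAF6 lay under the region credited to MBLAC1.

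Away from promoters the members had few control regions, 31 of their 94. Regions at promoters made up 67%, beside 57.2% of all control regions, and distal intergenic regions 10.6%, beside 16.1%. Of the 31, 15 lay on the credited gene, 6 on another protein-coding gene and 10 on none. The TFII-I family held 9 of the 31, all in its cluster on chromosome 7. GTF2I alone had 7 control regions in all, 4 of them a string of upstream intergenic regions from 13.915 kb to 51.296 kb before its start, with folds of 4.02 to 6.09.

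The strongest control region away from a promoter was credited to GTF3A from 61.887 kb upstream, with a fold of 7.66 and 16 fragments. The next was an intronic region of GTF2IRD1, with a fold of 6.61 and 24 fragments over 811 bp. A GTF2I upstream region had 6.09. A region credited to GTF2H5 (fold 5.95) lay 63.858 kb beyond its start. MED26, a Mediator subunit that recruits elongation factors, had one 2.028 kb past an inner start of the authors' annotation (5.79). This region lay far inside the gene, and the listed RefSeq start of MED26 had no control region within 1 kb. Credit at such distances rests on the nearest gene alone.

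In testosterone-treated cells 6 regions were credited to members, 2 of POLR3C and 1 each of MED15, GTF3C2, GTF2I and TAF4. Of these 6, 2 overlapped a control region, taking 1 shared base as enough, where 28.1% of the 604 testosterone regions did. The 6 summits, most of them not at promoters, held 10 to 13 fragments. The control promoter summits of the same 5 genes held 17 to 40. Control summits away from promoters, which MED15, TAF4 and GTF2I had, held 9 to 19.

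POLR3C belongs to the Pol III module that melts the promoter. Its testosterone promoter region, chr1:145824194-145824842, had 13 fragments and a fold of 6.30, the 16th highest of the list. The control region, chr1:145823769-145824441, had 33 fragments and a fold of 5.32. They overlapped by 248 bp and their summits were 126 bp apart, so the testosterone region reached further into the gene and covered the whole of the second POLR3C window printed above. The local background worked out from pileup and fold, if the caller adds 1 to both, was 5.34 fragments in the control list and 1.22 in the testosterone list. Fold was thus higher where fragments were fewer. A second testosterone region of POLR3C, 2143 bp into the gene, had 12 fragments and a fold of 3.91, and lay 1.931 kb from the control region.

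MED15 binds activators such as SREBP, the regulator of cholesterol genes. Its testosterone region, chr22:20507304-20507541, had 11 fragments and a fold of 5.57. It lay wholly inside the control region, chr22:20507304-20507941, which had 17 fragments and a fold of 4.23. The summits were 2 bp apart. The testosterone region covered 37.3% of the control region and ended upstream of the start in the printed window. By control fold MED15 ranked 6719 and POLR3C 4972 among the 8188 marked genes, where rank 1 is the highest fold.

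The other 3 testosterone regions lay inside genes whose control promoter region was not called after testosterone. In GTF3C2, a TFIIIC subunit, the region lay 1651 bp into the gene, 1.351 kb from the control promoter region, with 10 fragments and a fold of 4.89. In GTF2I it lay in an intron, 4658 bp into the gene and 1.782 kb beyond the nearest control region, with 12 fragments and a fold of 6.03. In TAF4, a core TFIID subunit that coactivators bind, it lay 22.462 kb into the gene and 20.887 kb from the nearest control region, with 11 fragments and a fold of 5.22. One more testosterone region lay on a member without being credited to it: a TAF6 region credited to CNPY4, 489 bp from a listed TAF6 start and 960 bp from the TAF6 control region, with 12 fragments and a fold of 6.03. Counted by position on the gene or within 1 kb, 6 of 110 members (5.45%) had a testosterone region, beside 2.01% of 19969 genes, and 66 of 110 (60%) had a control region, beside 51.4%.

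**Figure D3:**
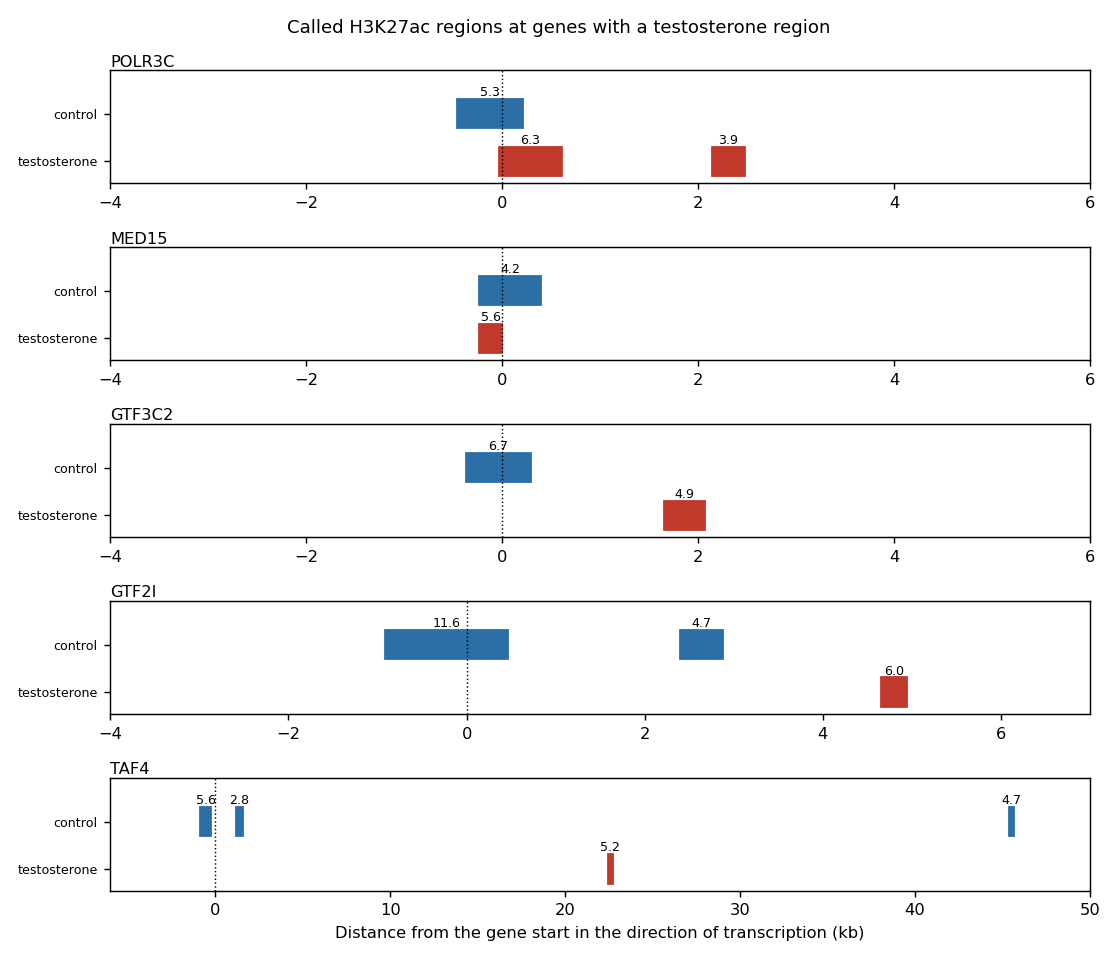
Called regions around the starts of the 5 genes with a credited testosterone region, by distance from the gene start in the direction of transcription (kb, scales differ between panels). Blue bars are control and red bars testosterone regions, and the number over each is the authors' fold. Only at POLR3C and MED15 do red and blue bars overlap, by 248 bp and 238 bp.

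The threshold of the lists differed. The weakest testosterone region had a −log10 p of 4.92 and the weakest control region 3.71. Of the 55 control-marked members 52 (94.5%) reached 4.92, beside 95.6% of all marked genes.

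Some members share their promoter with another gene. Of the 85 with a listed start, 24 (28.2%) had a start of another gene on the opposite strand within 1 kb, beside 13.6% of 15812 genes. Of these 24, 19 (79.2%) had a control region within 1 kb of a start, beside 74.8% of all such paired genes. Of the 61 without a partner, 26 (42.6%) had one, beside 42% of all genes without a partner. MED19 is paired with TMX2, GTF2H1 with HPS5, POLR3C with RNF115 and TAF6 with CNPY4. POLR1A, paired with PTCD3, had no control region there. At a paired start a region cannot be assigned to 1 of the genes.

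The promoter windows of the members were rich in the ETS motif. CCGGAAG stood in 43 of 104 member windows (41.3%) and in 12.8% of 22139 windows of all protein-coding genes. By gene it stood in 38 of 85 members (44.7%) and in 16.5% of 15812 genes. Windows of 1 gene overlap in part, so they are not independent. The share was 45.6% in member windows near a control region and 36.2% in those not near one, and for all genes 18.9% and 8.13%. Member windows without called acetylation thus held the motif more often than acetylated windows at large.

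The ETS motif was spread over the machinery unevenly. All 4 SL1 genes had it, 13 of 21 GTF2 and GTF3 genes, 9 of 24 polymerase genes, 7 of 20 Mediator genes and 5 of 16 TAFs of TFIID and SAGA. The 21 include the TFIIIA and TFIIIC genes of Pol III and GTF2IRD1 of the TFII-I family. It stood within the 50 bp before the start for 23 of 55 matches in members (41.8%), beside 35.8% for all genes. Matches were counted in each window, so a site in overlapping windows of a gene was counted in each of them. In the POLR3C window printed above the match starts 25 bp before the start, in MED15 there are matches 47 and 17 bp before it, and in TAF1B they lie 15 and 37 bp after it. From the other listed start of TAF1B, the same sites lie 17 bp before and 5 bp after. In GTF3C6 an ETS match begins 99 bp before the start, and a GGGCGG match on the other strand begins 106 bp before it. TAF6L has no ETS match but 2 CCAAT matches, an E-box and 2 GGGCGG matches, MED19 has 4 CCAAT matches, and the POLR1A window holds none of the 9 motifs.

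Other motifs differed less or were rarer. GGGCGG stood in 61.5% of member windows, beside 56.3% of all windows, and CCAAT in 29.8%, beside 34.6%. AAGATGG stood in 12.5% beside 6.04%, CACGTG in 16.3% beside 8.34%, and GCGCATGCG in 7.69% beside 2.36%. TGACGTNA was found in 5.77% beside 3.53%. TATAAA stood in 5.77% beside 9.47%, and ACTACAATT in 0 of 104 beside 0.379%. The median GC content of member windows was 61.3%, beside 62.3%, and the median number of CpG was 25, beside 21. These matches are descriptions of letters and no evidence that a factor was bound.

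**Figure D4:**
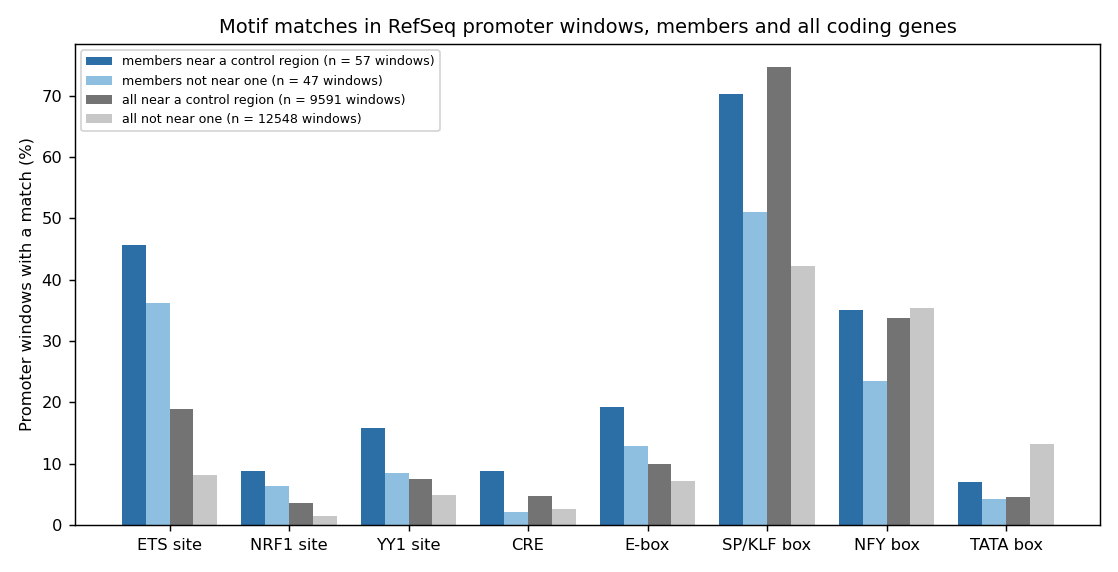
Share of promoter windows with a match to each motif (y axis, %), for member windows near (dark blue) and not near (light blue) a control region and for windows of all protein-coding genes near (dark grey) and not near (light grey) one. The ETS motif stands in 45.6% and 36.2% of member windows, above both shares of all genes, while the SP and KLF motif follows acetylation in both.

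Partners whose symbols fall outside the rule were followed in a list of 30 genes: TBP and its relatives, the remaining TFIIH subunits, the Mediator kinases, TFIIIB, Pol I factors, SNAPc and assembly factors. The list was put together by hand with earlier results of these data known. In control cells 21 of 30 (70%) had a promoter region, beside 41% of all protein-coding genes, with a median fold of 5.95. After testosterone 1 had one, beside 0.931% of all genes. That gene was UBTF, which holds ribosomal RNA genes in an open state. Its control promoter regions summed to 4562 bp with a fold of 10.8, wider than those of any member. The Mediator kinases CDK8 (11.0) and CDK19 (8.63) and the TFIIIB subunits BRF1 (10.8) and BRF2 (8.79) were well above TBP (5.17). BRF2, like CRCP, SNAPC4 and RPAP1, was credited with a promoter region but had no control region within 1 kb of a listed RefSeq start. Not marked were TBPL2, CDK7, MNAT1, CCNC, MAF1, RRN3, TTF1, SNAPC5 and GPN3. GPN3 was credited with no control region, but one lay within 1 kb of its listed start. MNAT1 had a testosterone region away from its promoter and no control region.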

How the data were processed

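H3K27ac ChIP-seq of KGN cells came as 4 libraries, an IP and an input for each condition, and the 2 deposited tables of called regions were used. Reads were aligned with Bowtie2 2.0, and MACS2, ChIPseeker and bedtools were used, per the submitters' processing notes, which name the builds hg38 and mm10. How the caller was set is not given in the sources used here. The pileup, the deposited signal at each summit, was read in fragments. In the control table it came in steps of 0.9366, and division by this step gave whole fragments within 0.0049. Fold enrichment is a deposited ratio. The −log10 p and −log10 q are deposited too, and both headers had been lost to a spreadsheet error in the testosterone table, so these columns were identified by their order and values. Positions were read as GRCh38.

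Members were taken by symbol, and RefSeq protein-coding genes on chromosomes 1 to 22 and X were the denominator. Promoter regions lie within 1 kb of the nearest gene start in the authors' annotation. Regions of the lists were shared if they had 1 base in common. Motifs were counted in RefSeq promoter windows of GRCh38.p14, available for 85 of the 111 members. Named were members with a testosterone region or no control region, the highest and lowest of each class, the 6 widest, the 6 strongest regions away from promoters and members that a small count turns on. POLR2A, GTF2B, the remaining members of small classes and the partners named singly were added for their roles, after their values were seen. Not every item so chosen is reported here. Members, lists and rules were chosen with earlier results of these data known. No test was made, since each condition had 1 IP library. The alternatives tried were stricter −log10 q (5 and 10) or fold (4), other promoter windows (500 bp and 3 kb), other symbol rules, position in place of credit, and stricter or looser overlap. The code was tested on simulated regions. Python 3.11.15, pandas 2.3.3 and numpy 2.4.6 were used.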

Additional observations from a re-analysis of the deposited data

How the results depend on the processing

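Of 49 alternative values, 39 were counted as the same as the reported value and 10 as moved. The limit was loose. Values counted as the same included 43 control genes at a −log10 q of at least 5, in place of 55. These were 78.2% of the marked members, beside 74.6% of all marked protein-coding genes. They also included 66 control genes by position on the gene or within 1 kb, and 3 testosterone genes in place of 2 with a 3 kb window. Each condition has 1 IP library, so none of the differences has a replicate error, and only regions past the authors' threshold could be counted. With regions under a −log10 q of 10 left out, the control count fell from 55 to 23 genes, the median fold rose from 5.902 to 7.568, and the share of member regions at promoters rose from 67.02% to 95.83%. With regions under 5 left out, that share was 81.48%. The share of all control regions at promoters under these limits is not given here, so the rise cannot be read as a trait of the members. No member kept a testosterone promoter region, and none a testosterone region overlapping a control one, at either limit (0 genes and 0 regions at 5, 0 and 0 at 10), since every testosterone region of a member has a −log10 q below 5. With a reciprocal overlap of 50% the 2 shared regions became 0. Counted by position on the gene or within 1 kb, 6 members had a testosterone region in place of 2. Counts within 1 kb of a RefSeq start, with older symbols, and at the weakest testosterone −log10 p were chosen after seeing the data, and gave 45, 57 and 52 control genes. Member summits hold at most 13 fragments in the testosterone list and at most 45 in the control list, at an estimated IP depth ratio of 1.03. These maxima come from 6 and 94 regions. Over all regions of the lists the maxima were 35 and 118 fragments. The causes were not tested.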

Other observations

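Paralogs did not always carry a control promoter region together. POLR3G (fold 10.9) was marked, by regions that also lay on MBLAC2, and POLR3GL was not. TAF6 (6.21) and TAF6L (13.3) were both marked, while TAF5 (5.70) was marked and TAF5L was not. TAF4 (5.64) was marked and TAF4B was not. CDK8 and CDK19 were both marked. These are values of 1 library and carry no replicate error.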
